A study of Rattus norvegicus with 138 samples.

Results

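Trim63, Fbxo32, Fbxo30, Foxo1 and Foxo3 are genes of muscle protein loss. They were taken by symbol, 5 of the 16181 gene symbols used here, and followed in the rat tibialis anterior (TA) muscle after volumetric muscle loss (VML), a severe injury in which a volume of muscle is lost together with the cells that would repair it. The rats were male Lewis rats, an inbred strain, of about 4 months, and the VML defect, full-thickness by the labels, was made by surgery in one TA with a 6-mm biopsy punch. Control muscles, labelled Sham at day 0, NoRun and NoRepair, were the left and right TA of 2 rats (4 muscles) that the study calls unoperated. Injured muscles (labelled VML) and contralateral muscles of operated rats (labelled NoVML) were taken at 3, 7, 14 and 28 days post injury (DPI). Operated rats were either left without repair or given an autologous minced muscle graft (MMG) made from the excised tissue, and were labelled as running (Run) or not (NoRun), a condition absent from the methods. Injured muscles of non-running rats numbered 10, 16, 8 and 8 at the 4 time points, of which 3, 8, 4 and 4 were not repaired. Their contralateral muscles numbered 4, 10, 4 and 4, of which 2, 4, 2 and 2 came from non-repaired rats. Running rats gave 14, 8, 8 and 4 injured muscles, and 4 contralateral muscles each at 3, 7 and 14 DPI.

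Muscle fibers lose protein when the ubiquitin-proteasome system tags contractile proteins for degradation, and the E3 ligases choose what is tagged. FoxO transcription factors, held out of the nucleus by insulin and IGF1 signaling through Akt, switch on the muscle E3 ligase genes during disuse, denervation, fasting and glucocorticoid excess. Trim63 encodes MuRF1, which targets thick filament proteins, Fbxo32 encodes atrogin-1 (MAFbx), whose known targets include MyoD and eIF3f, and Fbxo30 encodes MUSA1, an F-box ligase that BMP signaling restrains.

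The Trim63 promoter was searched because FoxO factors and the glucocorticoid receptor are both known to act on this gene. In the RefSeq promoter table (GRCr8 build), which matched 3 of the 5 genes (Trim63, Fbxo30 and Foxo1), the 250 bases before the Trim63 start lie at chr5:151816986-151817235 on the plus strand and run as follows, with motif matches in capitals.
Trim63 promoter: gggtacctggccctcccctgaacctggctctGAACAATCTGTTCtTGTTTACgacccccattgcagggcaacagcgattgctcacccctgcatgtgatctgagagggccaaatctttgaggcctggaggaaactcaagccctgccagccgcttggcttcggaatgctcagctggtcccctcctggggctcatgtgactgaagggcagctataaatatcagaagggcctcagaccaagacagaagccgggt
A glucocorticoid receptor-type palindrome (GAACANNNTGTTC) spans bases 219 to 207 before the start, and a FoxO-type motif (TGTTTAC) spans bases 205 to 199, so that 1 base lies between them and they do not overlap. Searched on both strands in 33469 promoters of the same length, TGTTTAC was present in 3.21% and GAACANNNTGTTC in 0.0418%. The Trim63 promoter was the 1 promoter that held both (0.00299%). The promoters of Fbxo30 (chr1:7475589-7475838) and Foxo1 (chr2:138462724-138462973), both on the plus strand, held neither motif in these windows.

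The values are TPM (transcript abundances scaled to one fixed total in every library), which the authors computed with Kallisto. Read numbers cannot be had from them, and no counting error can be given. Libraries with fewer than 7000 symbols above 1 TPM were left out (13 libraries, with 901 to 5712 such symbols). Comparisons were fitted with limma to log2(TPM + 1) over 114 muscles and 11328 genes together. All differences are on that log2 scale with their standard error (SE), a gene "passed" at a Benjamini-Hochberg adjusted p under 0.05, and a gene was "called" when it also differed by more than 1. The labels name rats, and the left and right control muscles of a rat are not independent animals. All control rats carry one series number and all operated rats another, so injury and series cannot be told apart against control muscle. The defining markers of muscle fibers were present in every muscle. Their summed level (16 genes) was 317677 to 381586 TPM in control muscle and 32292 to 88668 TPM in injured muscle of non-running rats at 3 DPI, while the sum of 10 leukocyte markers was 21.7 to 44.8 TPM and 5290 to 8621 TPM. In running rats the injured muscles held 40544 to 123880 TPM and 4446 to 7945 TPM. In such bulk RNA, fewer fibers and less RNA per fiber cannot be told apart. The median of all tested genes also shifted in injured muscle. Against contralateral muscle it stood at 0.60, 0.87, 0.54 and 0.43 at 3, 7, 14 and 28 DPI. A second scaling, median-of-ratios size factors on TPM, brought this median to 0.06 or less, and its values are given beside the comparisons of injured with control and with contralateral muscle. Of all genes called against contralateral muscle, 84.5%, 94.4%, 98.5% and 98.4% were higher in injured muscle at the 4 time points, and 59.4%, 60.1%, 70.3% and 79.5% under size factors.

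The 5 genes followed different courses. Fbxo30 and Foxo3 were higher in injured than in contralateral muscle in all 34 rats with both muscles, running rats included. Trim63 was higher in 27 of the 34, Foxo1 in 31 and Fbxo32 in 17. These counts are on TPM, where the median of all tested genes was also higher in injured muscle of non-running rats. The share of all genes with such counts is not given. Against control muscle, 6 of the 20 gene-by-day pairs were called, all higher (Trim63 at 3 DPI, Fbxo30 at 3, 7 and 28 DPI, and Foxo3 at 3 and 7 DPI), where 52.6%, 48.1%, 25.5% and 21.3% of all tested genes were called at 3, 7, 14 and 28 DPI. Against contralateral muscle, 5 of 20 were called, again all higher (Fbxo30 at every time point and Foxo3 at 7 DPI), where 41.2%, 46.5%, 23.7% and 16.2% of all genes were called. By the adjusted p alone, 13 of 20 pairs passed against control muscle, where 85.2%, 88.2%, 72.3% and 71.8% of all genes did, and 14 of 20 against contralateral muscle, where 82.9%, 91.6%, 77.8% and 71.8% did. These shares lie near or below the background, so a call against these references does not set the genes apart from the rest of the transcriptome. In non-running rats the highest mean of Fbxo32 was in contralateral muscle at 3 DPI (382 ± 114 TPM, SD, n = 4), and that of Trim63 in injured muscle at 3 DPI (485 ± 186 TPM, SD, n = 10). Contralateral muscle of running rats at 3 DPI held more of both (447 ± 130.8 and 571 ± 248 TPM, SD, n = 4).

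Trim63 (MuRF1) was measured at 224 and 257 TPM in the muscles of the first control rat and at 232 and 125.8 TPM in those of the second. Non-repaired injured muscles at 3 DPI held 406, 492.7 and 780.2 TPM. All 3 of these injured muscles lay above all 4 control muscles. The difference was 1.41 (SE 0.40, adjusted p = 0.001), but 0.26 and not past the test under size factors. Over all 10 injured muscles of non-running rats the level was 225 at the lowest, 449 at the median and 824 TPM at the highest, so that with the grafted muscles the range meets that of control muscle. Contralateral muscles at 3 DPI held 326, 326, 448 and 332 TPM, inside the range of the injured muscles. The difference of 0.43 (SE 0.32, adjusted p = 0.21) did not pass, and it was -0.22 under size factors.

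At 7 DPI, Trim63 in injured muscle ranged from 64.4 through a median of 215 to 525 TPM, and in contralateral muscle from 105.7 through 152 to 183 TPM. Both ranges overlap, with the lowest injured muscle below every contralateral one. Trim63 rose against contralateral muscle by 0.59 (SE 0.22, adjusted p = 0.0081) and was higher in 9 of 10 rats, but under size factors the difference turned to -0.43 (adjusted p = 0.058). Against control muscle Trim63 differed by 0.33, -0.12 and 0.28 at 7, 14 and 28 DPI, none past the test, and under size factors by -0.76 (adjusted p = 0.026), -0.81 (adjusted p = 0.045) and -0.40 (adjusted p = 0.34). Between 3 and 7 DPI it fell in non-repaired injured muscle (-1.08, SE 0.36, adjusted p = 0.012, with 7.34% of genes called between these days, 6.82% between 7 and 14 DPI and 0.459% between 14 and 28 DPI). Without the injured muscle of rat 011 at 7 DPI, or that of rat 018 at 3 DPI, this call was lost (-0.79 and -0.81). Under size factors the step was -1.02 (adjusted p = 0.016). At 14 DPI injured muscles held 157 to 221 TPM and contralateral muscles 178, 124, 178 and 144.1 TPM, which overlap, with a difference of 0.31 (-0.37 under size factors), not past the test on either scale. At 28 DPI injured muscles held 214, 243 and 396 TPM at the lowest, median and highest, and contralateral muscles 201, 170.1, 194 and 175.5 TPM. These 2 ranges do not overlap, and Trim63 was higher in the injured muscle of 4 of 4 rats, but the difference of 0.47 (SE 0.32, adjusted p = 0.18) did not pass and was -0.06 under size factors.

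Fbxo32 (atrogin-1) had another course. Control muscles held 145, 143.1, 104.7 and 72.4 TPM. The non-repaired injured muscles held 94.2, 249 and 297 TPM at 3 DPI, and all 10 injured muscles 94.2, 184 and 356 TPM at the lowest, median and highest. The contralateral muscles held 409.8, 214, 453 and 452 TPM, so that 3 of the 4 stood above every injured muscle. Fbxo32 was lower in injured than in contralateral muscle by -0.96 (SE 0.38, adjusted p = 0.017), and was called lower under size factors (-1.60, adjusted p = 6.4e-05). With each muscle left out in turn the TPM difference ran from -1.197 to -0.71, called in 4 of 14 fits. It did not pass without the contralateral muscle of rat 010 (-0.73, adjusted p = 0.12) or without the injured muscle of that rat (-0.71, adjusted p = 0.091). Under size factors 14.5%, 13.3%, 5.05% and 2.21% of all genes were called lower against contralateral muscle at 3, 7, 14 and 28 DPI, and 16.9%, 14.2%, 5.9% and 3.17% against control muscle. Against control muscle the difference at 3 DPI was 0.77 (SE 0.48, adjusted p = 0.13), and -0.38 under size factors. It lay between 0.45 and 1.27 with each muscle left out in turn, and was called without the injured muscle of rat 010 (1.27, adjusted p = 0.024). At 7, 14 and 28 DPI it was 0.07, -0.67 and -0.44, none past the test, and under size factors Fbxo32 was called lower on these 3 days (-1.01, -1.36 and -1.12). Within rats, Fbxo32 was higher in the injured muscle of 1 of 4 non-running rats and 0 of 4 running rats at 3 DPI, where the differences ran from -2.11 to 0.22 and from -1.54 to -0.80.

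At 7 DPI, Fbxo32 stood at 27.2, 108.3 and 312 TPM (lowest, median, highest) in injured muscle and at 51.5, 65.6 and 99.5 TPM in contralateral muscle. The ranges overlap, and the injured muscle was the higher one in 9 of 10 rats. The difference had turned to 0.61 (SE 0.26, adjusted p = 0.021), or -0.40 (adjusted p = 0.13) under size factors. The change in the injury effect from 3 to 7 DPI was itself tested, a comparison added after the values were seen. Fbxo32 was the 1 called gene of the 5 in it (1.58, SE 0.46, adjusted p = 0.0028, and 1.21 under size factors), where 8.57% of all genes were called. Day and range of rat numbers are mixed in this change, since every contralateral muscle at 3 DPI came from rats 001 to 032, and 8 of the 10 at 7 DPI from rats with higher numbers. Within rats 001 to 032 the injury effect on Fbxo32 was -0.93 (SE 0.35) at 3 DPI and, in grafted rats, -0.01 (SE 0.49) at 7 DPI (-1.58 and -0.90 under size factors), and the difference between these was not tested. In the non-repaired arm alone this change of Fbxo32 from 3 to 7 DPI was 1.44 with an adjusted p of 0.084. The change in the injury effect from 3 to 28 DPI was called for none of the 5 (22.3% of all genes). At 14 DPI injured muscles held 56.6 to 93.5 TPM and contralateral muscles 68.9, 51.6, 130.9 and 67.2 TPM, with a difference of 0.01 (-0.67 under size factors, adjusted p = 0.1). At 28 DPI injured muscles held 60.8, 84.2 and 132.4 TPM (lowest, median, highest), and contralateral muscles 127.3, 104.9, 141.3 and 133.6 TPM. The injured muscle was the lower one in 4 of 4 rats, with ranges that meet. The difference of -0.56 (SE 0.38, adjusted p = 0.18) did not pass, whereas under size factors Fbxo32 was called lower (-1.09, adjusted p = 0.0081).

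**Figure D1:**
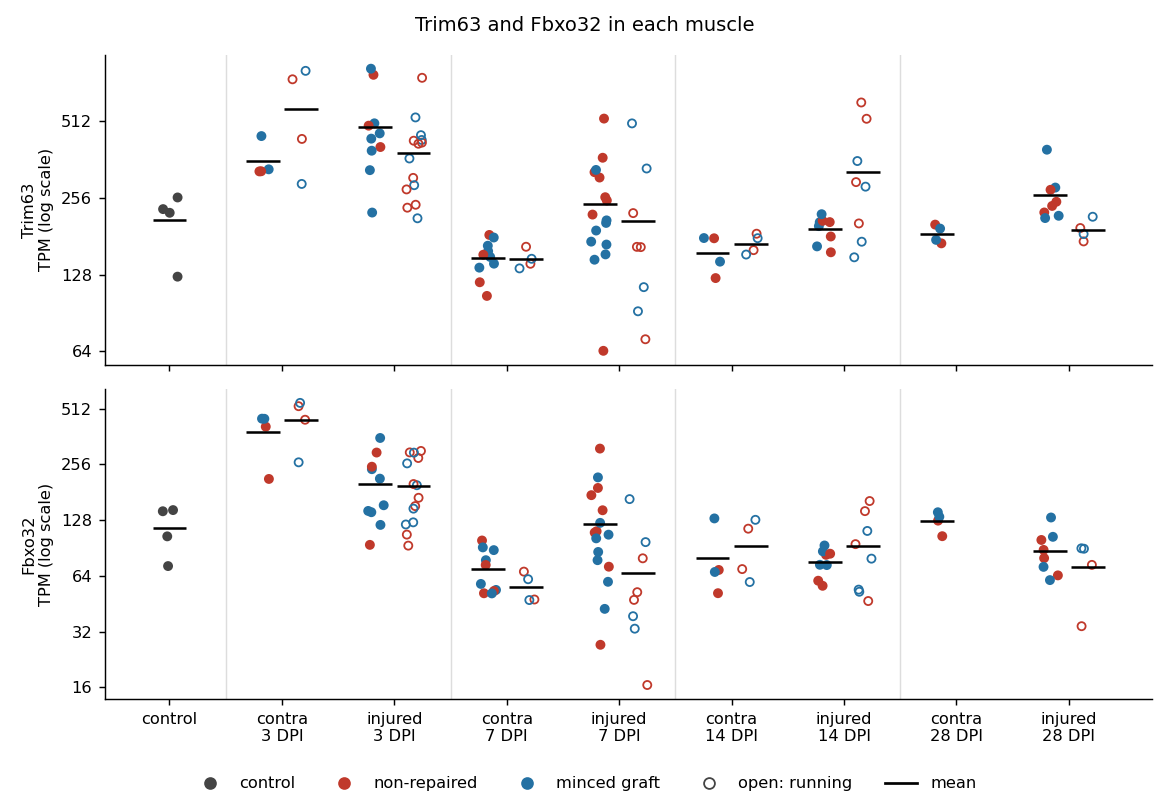
TPM of Trim63 and Fbxo32 on a log axis in each muscle, by group and DPI, for non-running and running rats. Each point is 1 muscle (red non-repaired, blue grafted, open running) and each bar a class mean, and Fbxo32 in contralateral muscle at 3 DPI lies mostly above injured muscle of the same day.

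The ratio of Trim63 to Fbxo32 TPM within a library does not depend on how libraries are scaled. It was 1.82 ± 0.281 (SD, n = 4) in control muscle and 1.01 in contralateral muscle at 3 DPI (0.735 to 1.53), the lowest mean of the 9 non-running muscle classes. Contralateral muscle at 7 DPI held 2.20. In injured muscle the ratio was 2.56, 2.22, 2.58 and 3.04 at 3, 7, 14 and 28 DPI. All 10 injured muscles at 3 DPI lay above the highest contralateral ratio of that day, the lowest at 1.56. In running rats the injured and contralateral ratios overlapped at 3 DPI (0.810 to 3.95 in 14 injured muscles and 0.978 to 1.47 in 4 contralateral ones), and the contralateral mean was 1.24 at 3 DPI and 2.68 at 7 DPI.

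On TPM, the range of Fbxo30 (MUSA1) in injured muscle stayed apart from both references at every time point. Control muscles held 8.13, 8.2, 8.04 and 2.83 TPM, and the last value, from the right muscle of the second rat, lies far below the others. The same muscle was the lowest control for the other genes too. Its library had the fewest symbols above 1 TPM (7866) of all those kept. Non-repaired injured muscles held 16.4, 23.1 and 21 TPM at 3 DPI, above every control muscle. Over both repair arms the lowest, median and highest injured muscles were 14.5, 20.9 and 27.9 TPM at 3 DPI, and 11.2, 18.6 and 27.4 TPM at 7 DPI. At 14 DPI they were 11.03, 15.995 and 20.5 TPM, and at 28 DPI 13.5, 16.4 and 27.1 TPM. Contralateral muscles held 9.4, 7.44, 8.86 and 10.6 TPM at 3 DPI, 3.01 to 6.76 TPM at 7 DPI, 5.1 to 5.97 TPM at 14 DPI and 6.93 to 8.6 TPM at 28 DPI. On no day did an injured muscle reach down to a control muscle or to a contralateral muscle of that day. Here and for the other genes, ranges are on TPM, and the share of all genes separated in this way is not given.

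Against contralateral muscle, Fbxo30 rose by 1.12 (SE 0.19, adjusted p = 1.2e-07) at 3 DPI, 1.61 (SE 0.13, adjusted p = 5.4e-21) at 7 DPI, 1.33 (SE 0.19, adjusted p = 2.6e-09) at 14 DPI and 1.14 (SE 0.19, adjusted p = 2.5e-07) at 28 DPI. Under size factors it stayed higher and past the test on all 4 days, at 0.52, 0.69, 0.72 and 0.66, below the size for a call. Against control muscle the differences were 1.51, 1.41, 0.97 and 1.27, all past the test, and 0.49, 0.44, 0.38 and 0.69 under size factors, where the 14 DPI difference did not pass (adjusted p = 0.058). Without the lowest control muscle, the 28 DPI difference was 0.96. Between 7 and 14 DPI Fbxo30 fell in non-repaired injured muscle by 0.44 (SE 0.19, adjusted p = 0.035). This step did not pass under size factors (-0.07, adjusted p = 0.75), and its adjusted p reached 0.14 with 1 muscle left out. Ordered by mean level, injured muscle at 3, 7, 28 and 14 DPI came first, and the range of the last of these did not meet that of the next class, contralateral muscle at 3 DPI (9.08 ± 1.31 TPM, SD, n = 4). Every other pair of neighbours in this order overlapped.

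Foxo3, a FoxO factor able to induce Fbxo32 and autophagy genes, moved with Fbxo30 but less. Control muscles held 5.37, 5.79, 3.85 and 3.3 TPM. Injured muscles held 7.01, 12.7 and 17.8 TPM at 3 DPI and 6.92, 11.1 and 15.3 TPM at 7 DPI (lowest, median, highest). At 14 DPI the 3 values were 6.51, 7.95 and 10.1 TPM, and at 28 DPI 6.16, 7.77 and 12.9 TPM. All injured muscles lay above all control muscles on each day. Contralateral muscles held 6.51, 7.38, 5.89 and 6.4 TPM at 3 DPI, 3.04 to 5.51 TPM at 7 DPI, 3.12 to 4.58 TPM at 14 DPI and 4.69 to 6.25 TPM at 28 DPI. They overlapped injured muscle at 3 and 28 DPI but not at 7 and 14 DPI. Foxo3 rose against contralateral muscle by 0.75, 1.18, 0.93 and 0.49 (SE 0.15, 0.10, 0.15 and 0.15), each past the test. Under size factors these were 0.17, 0.29, 0.36 and 0.03, and the differences at 7 and 14 DPI still passed (adjusted p = 0.0016 and 0.0101). Against control muscle the 3 and 7 DPI differences of 1.06 and 1.00 shrank to 0.07 and 0.06 under size factors. The 3 DPI difference was 0.81 without the injured muscle of rat 017 and 0.95 without the lowest control muscle. The 7 DPI difference sits at the threshold of a call and was under 1 in 7 of 12 fits with a muscle left out (0.89 to 1.10 over all 12).

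Foxo1, the FoxO factor most tied to fasting, had class means from 5.18 to 11.2 TPM in non-running rats, against 3.79 to 12.6 TPM for Foxo3. Control muscles held 5.95, 6.69, 4.76 and 3.31 TPM and non-repaired injured muscles at 3 DPI 5.3, 12.4 and 8.78 TPM, which overlap. Contralateral muscles at 3 DPI held 8.42, 8.81, 7.33 and 8.96 TPM, all above control muscle and inside the range of injured muscle (5.3 to 12.4 TPM). At 3 DPI Foxo1 differed between injured and contralateral muscle by 0.08 (SE 0.14, adjusted p = 0.6), and under size factors it was lower in injured muscle (-0.49, adjusted p = 4.5e-05). At 7 DPI injured muscles held 6.71 to 10.9 TPM and contralateral muscles 4 to 6.66 TPM. At 28 DPI they held 8.05 to 22.6 TPM and 6.17 to 7.06 TPM. Ranges did not overlap on either day or at 14 DPI. The differences were 0.60 (SE 0.09, adjusted p = 1.1e-08), 0.55 (SE 0.14, adjusted p = 3.2e-04) and 0.65 (SE 0.14, adjusted p = 4.4e-05) at 7, 14 and 28 DPI. Under size factors they were -0.29 (adjusted p = 2.4e-04), -0.04 and 0.17, so the direction of Foxo1 at 3, 7 and 14 DPI depends on the scaling. Against control muscle Foxo1 differed by 0.63, 0.70, 0.51 and 0.71 at 3, 7, 14 and 28 DPI, and under size factors by -0.36 (adjusted p = 0.015), -0.25 (adjusted p = 0.035), -0.08 and 0.13.

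**Figure D2:**
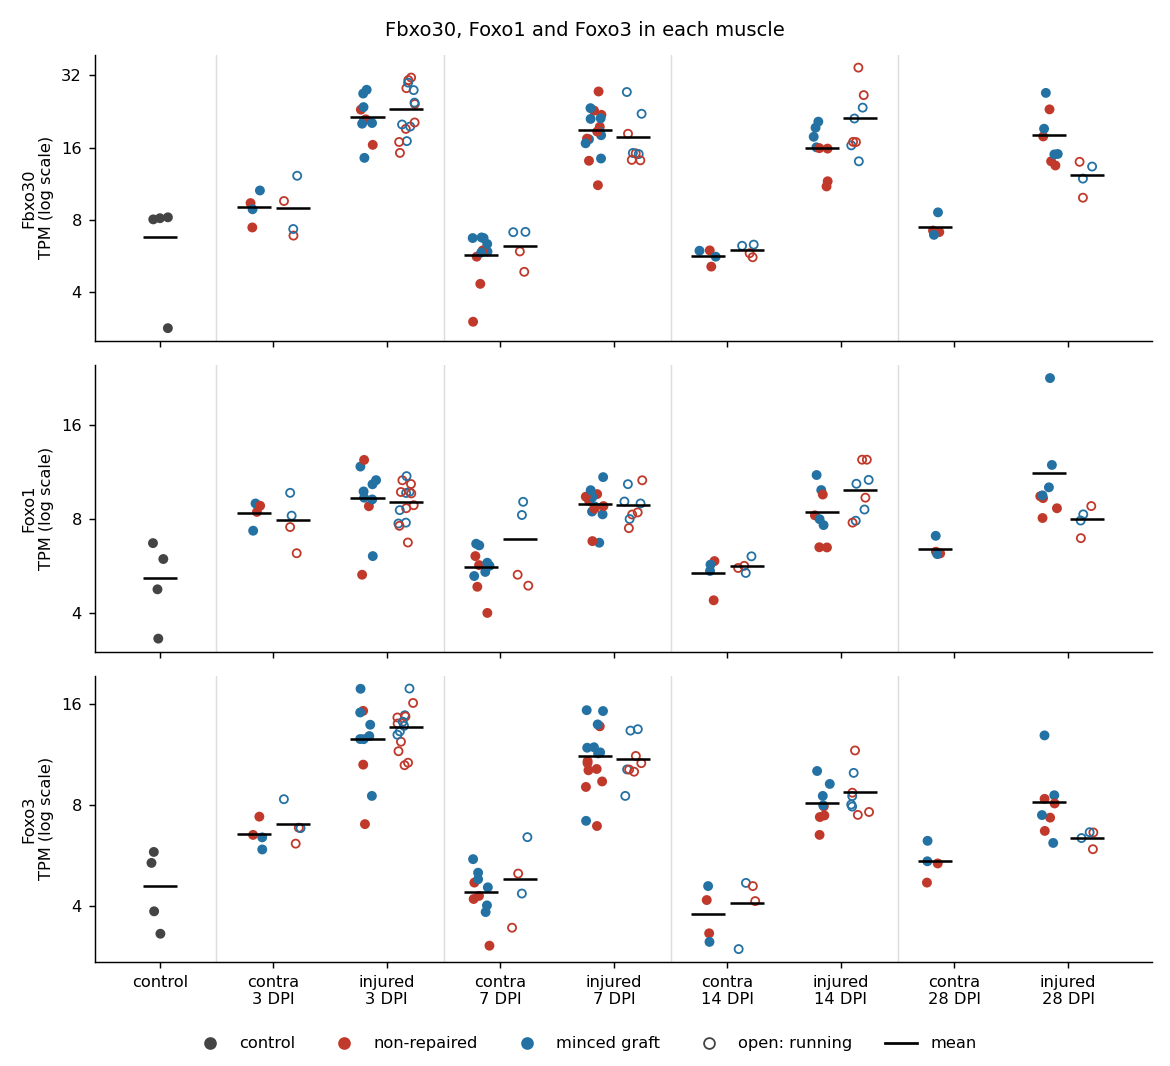
TPM of Fbxo30, Foxo1 and Foxo3 on a log axis in each muscle, by group and DPI. Each point is 1 muscle (red non-repaired, blue grafted, open running) and each bar a class mean, and for Fbxo30 no injured muscle reaches down to a control muscle or to a contralateral muscle of the same DPI.

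A further scale set each gene against the fiber markers, as its log2 level minus the mean of the 16 markers, since the fiber markers were lower in injured muscle. Relative to fiber markers, all 5 genes were called higher against contralateral muscle at 3 DPI (Trim63 2.66, Fbxo32 1.27, Fbxo30 3.36, Foxo1 2.32, Foxo3 2.99) and at 7 DPI (1.91, 1.93, 2.93, 1.92 and 2.5). At 14 DPI Fbxo30 (1.70) and Foxo3 (1.30) were called, and at 28 DPI Fbxo30 (1.47). The background of this scale is high, with 95.6%, 91.1%, 43.1% and 30.4% of all genes called higher at 3, 7, 14 and 28 DPI, so that 13 called of 20 pairs is read as a description of the scale. Of the 5 genes, Fbxo32 at 3 DPI is the one that passed the test in opposite directions on TPM (-0.96) and relative to fiber markers (1.27), and the pass on TPM was lost without either muscle of rat 010.

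**Figure D3:**
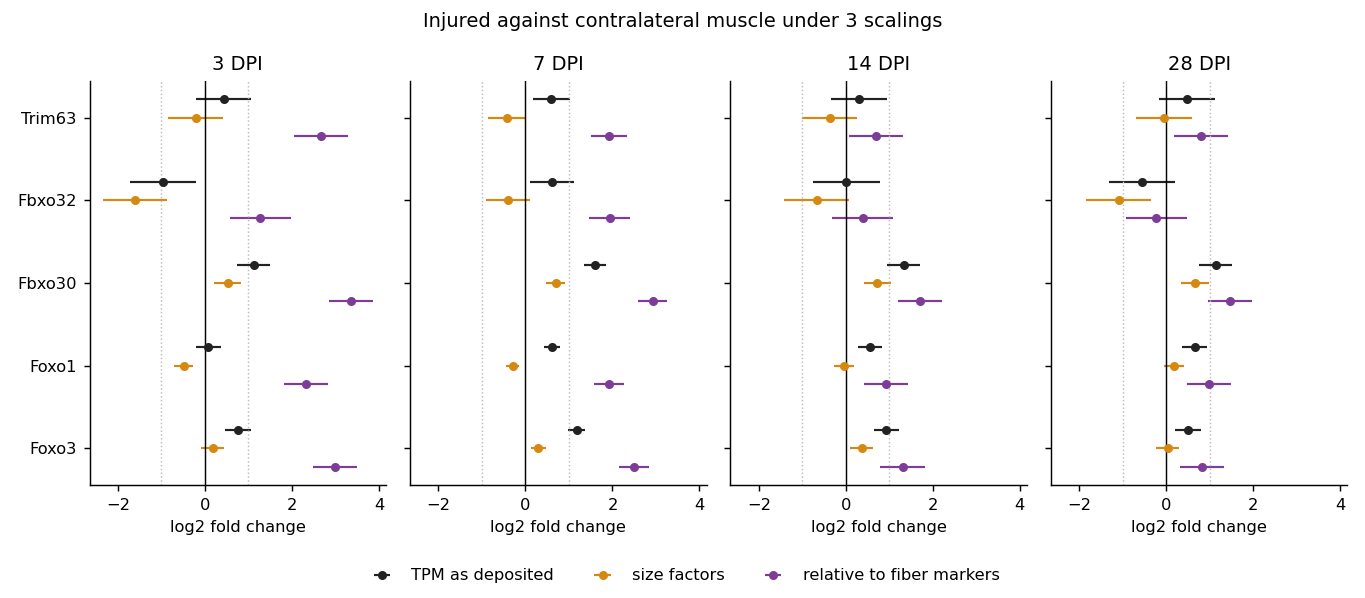
Log2 difference between injured and contralateral muscle for the 5 genes at each DPI, on TPM, under size factors and relative to fiber markers, with 95% confidence intervals. Fbxo30 lies above 0 on all 3 scales at each DPI, whereas Fbxo32 at 3 DPI lies below 0 on TPM and above 0 relative to fiber markers.

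The uninjured muscle of operated rats asks whether these genes respond outside the wound. On TPM, contralateral muscle at 3 DPI lay wholly above control muscle for Trim63, Fbxo32, Foxo1 and Foxo3. The share of all genes so separated is not given. Fbxo32 was called (1.70, SE 0.44, adjusted p = 7.3e-04, and 1.12, adjusted p = 0.035, under size factors), 1 of 20 gene-by-day pairs, where 7.15%, 1.04%, 1.03% and 0.512% of all genes were called at 3, 7, 14 and 28 DPI, and 2.75% as higher at 3 DPI under size factors. Foxo1 (0.63, SE 0.16, adjusted p = 6.5e-04) and Foxo3 (0.46, SE 0.17, adjusted p = 0.016) passed, but under size factors were at 0.14 and -0.04. Trim63 (0.81, SE 0.37, adjusted p = 0.051) and Fbxo30 (0.45, SE 0.22, adjusted p = 0.067) did not pass. Under size factors these were 0.22 and -0.06. At 7, 14 and 28 DPI none of the 5 passed. By the adjusted p alone 66.4%, 14.9%, 6.91% and 2.2% of all genes passed on the 4 days. At 3 DPI 9 of 10 leukocyte markers and 8 of 8 fibroblast markers were also called higher in contralateral muscle, with summed levels of 86.7 to 235 TPM against 21.7 to 44.8 TPM and of 659 to 1524 TPM against 84.4 to 255 TPM. None of these markers was at 0. Of the 16 fiber markers 4 passed as lower. The part of these markers in the result was not tested.

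Within operated rats, contralateral muscle at 3 DPI was compared with later days, also after the values were seen. Of the 15 pairs, 5 were called, all higher at 3 DPI, where 2.52%, 3.2% and 1.71% of all genes were called higher against 7, 14 and 28 DPI. Fbxo32 was higher by 2.42 (SE 0.37, adjusted p = 8.6e-08), 2.27 (SE 0.44, adjusted p = 1.7e-05) and 1.53 (SE 0.44, adjusted p = 0.0046). Under size factors these were 1.97, 1.77 and 1.13, with 0.447%, 0.635% and 0.465% of all genes called higher, and the last did not pass (adjusted p = 0.069). Trim63 was higher by 1.28, 1.19 and 0.94 (SE 0.31, 0.37 and 0.37), the first 2 called, and under size factors by 0.82 (adjusted p = 0.039), 0.68 (adjusted p = 0.19) and 0.54 (adjusted p = 0.37), of which none was called and the first alone passed. Cell markers moved between the same days. From 3 to 7 DPI the sum of the 16 fiber markers went from 255471 to 290300 TPM up to 299744 to 338623 TPM, and that of the 6 new fiber markers from 72.9 to 93.4 TPM down to 36.7 to 64.0 TPM, with no overlap in either. The leukocyte sum had medians of 190 and 76.3 TPM and the fibroblast sum of 1133 and 530 TPM, with ranges that overlap, and 9 of 10 and 7 of 8 of these markers passed as higher at 3 DPI. Their part in the result was not tested.

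Running rats gave separate contralateral muscles. At 3 DPI these held 437, 749, 809 and 291 TPM of Trim63 and 447, 529, 551 and 263.0 TPM of Fbxo32. At 7 DPI they held 165, 141.4, 135.6 and 148 TPM of Trim63 and 67.5, 47.7, 61.5 and 47.4 TPM of Fbxo32. The days do not overlap for either gene. Fbxo32 was higher at 3 than at 7 DPI by 2.94 (SE 0.44, adjusted p = 1.1e-07) and Trim63 by 1.83 (SE 0.37, adjusted p = 5.5e-05), with 2.31% of all genes called, and both stayed called under size factors (2.62 and 1.51), where 0.886% were called higher. Both were also called at 3 against 14 DPI (4.5% of all genes, and 1.23% as higher under size factors), which makes 4 of 10 pairs. Between 3 and 7 DPI none of the 10 leukocyte and 8 fibroblast markers passed the limma test (medians 0.32 and 0.16). The summed level of 6 new fiber markers was 90.1 to 153 TPM at 3 DPI and 37.1 to 76.5 TPM at 7 DPI (2 of 6 called higher), and that of the 16 fiber markers 229444 to 259677 TPM and 295901 to 321128 TPM (1 passed higher and 3 lower). Neither sum overlaps between the days. At 14 DPI the same sums were 41.9 to 55.0 and 345615 to 357316 TPM, also with no overlap with 3 DPI. The leukocyte and fibroblast sums had medians of 165 and 1069 TPM at 3 DPI and 92.8 and 642 TPM at 14 DPI, with ranges that overlap. The part of all these markers in the result was not tested. Rats 001 to 032 hold every contralateral muscle at 3 DPI and every running rat at 7 DPI, so the running comparison of 3 with 7 DPI lies within this range of numbers. Every muscle at 14 and 28 DPI came from rats with higher numbers. In contralateral muscle, running or not, day and range cannot be told apart between 3 DPI and these days.

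Rat numbers fall into ranges, and at 7 DPI both lie in the injured group. Injured non-running muscles held 73.3 ± 29.9 TPM of Fbxo32 (SD, n = 8) in rats 001 to 032 and 172 ± 70.0 TPM (SD, n = 8) in rats with higher numbers. The difference was called (1.25, SE 0.28, adjusted p = 0.001), with 0.636% of all genes called between the ranges. Trim63 (0.64, adjusted p = 0.046) and Fbxo30 (0.39, adjusted p = 0.033) passed with smaller differences. In contralateral muscle of grafted non-running rats, 4 with higher numbers and 2 in 001 to 032, Fbxo32 differed by 0.11 (SE 0.49). There 0% of all genes were called. The injury effect at 7 DPI was fitted apart in each range, and the difference between the ranges was not tested. In rats with higher numbers, where 45% of all genes were called, Fbxo32 was called higher against contralateral muscle (1.22, SE 0.28, adjusted p = 5.4e-05) and Trim63 passed (0.90, SE 0.26). Under size factors neither passed (0.21, adjusted p = 0.48, and -0.12, adjusted p = 0.66). In grafted rats 001 to 032, with 46.3% of all genes called, the differences were -0.01 (SE 0.49) and 0.19 (SE 0.45), and under size factors -0.90 (adjusted p = 0.076) and -0.71 (adjusted p = 0.14). Fbxo30 was called in both ranges (1.82 and 1.22), and Foxo3 in higher numbers (1.31), with 0.997 in rats 001 to 032. Under size factors Fbxo30 (0.91 and 0.40) and Foxo3 (0.42 and 0.21) were called in neither and passed in higher numbers alone. At 3 DPI, within rats 001 to 032, Fbxo32 was lower (-0.93, adjusted p = 0.012, and called at -1.58 under size factors) and Fbxo30 higher by 1.12 (0.51 under size factors), with 42.1% of all genes called and 36.4% under size factors. Whether numbers mark a batch is not given in the sources used here, and their part in the results was not tested further.

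**Figure D4:**
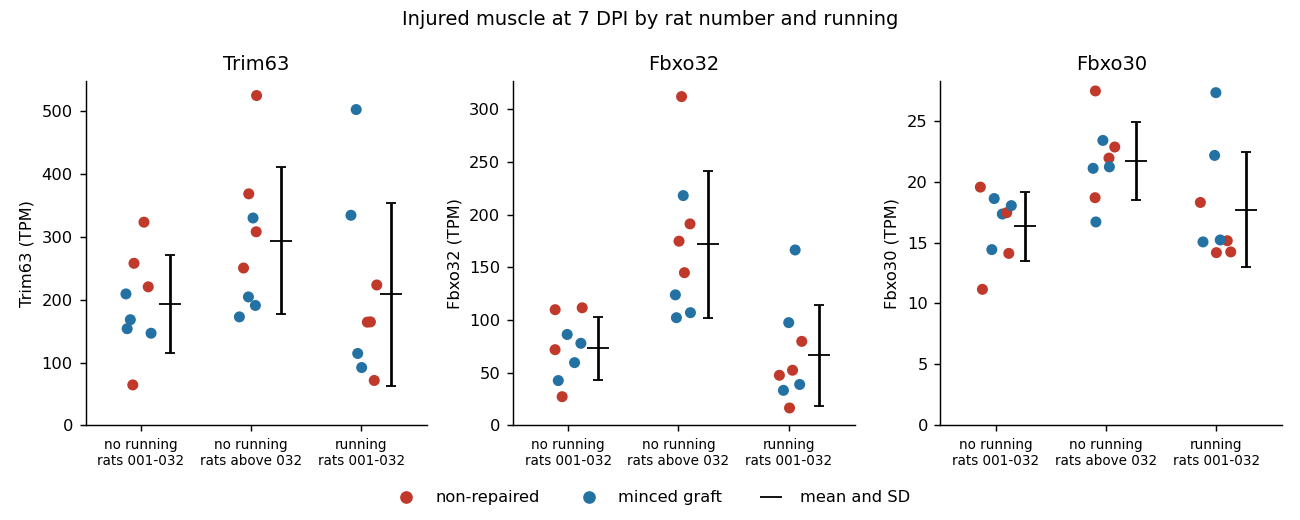
TPM of Trim63, Fbxo32 and Fbxo30 in injured muscle at 7 DPI, by range of rat numbers and running. Each point is 1 muscle, colored by repair, beside the mean and SD, and Fbxo32 in non-running rats with higher numbers (mean 172 TPM) stands above non-running (73.3 TPM) and running rats (66.5 TPM) numbered 001 to 032.

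The graft did not move any of the 5 genes past the test on any day. Differences between grafted and non-repaired injured muscle lay between -0.41 and 0.48 over 20 pairs, with 95% confidence intervals reaching from -1.07 to 1.10, and 2 pairs had an unadjusted p under 0.05 in limma. For Fbxo32 the differences were -0.06, -0.35, 0.21 and 0.10 at 3, 7, 14 and 28 DPI. Of all genes, 0.00883%, 0.0883%, 0.0265% and 0% were called and 0.0441%, 8.19%, 0.0441% and 0% passed the adjusted p alone. Fitted within each range of rat numbers at 7 DPI, 1.04% of all genes (118) were called between grafted and non-repaired muscle in rats with higher numbers and 0.0177% (2) in rats 001 to 032. None of the 5 genes passed in either range. Fbxo32 differed by -0.59 (adjusted p = 0.29) and -0.12, and Trim63 by -0.68 (adjusted p = 0.18) and -0.15, in that order. The injury effect did not differ by graft for any of the 5 genes either, with 0 of 20 pairs past the test or at an unadjusted p under 0.05, and 0% of all genes called on each day.

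Running rats held 213, 392.3 and 759 TPM of Trim63 in injured muscle at 3 DPI (lowest, median, highest) and 71.5, 165 and 503 TPM at 7 DPI. At 14 DPI the 3 values were 150, 290 and 608 TPM, and at 28 DPI the range was 173 to 216 TPM. Fbxo32 held 93.3, 184 and 303 TPM at 3 DPI, 16.5, 49.9 and 166 TPM at 7 DPI, 46.8, 87.2 and 162 TPM at 14 DPI and 34.3 to 90.2 TPM at 28 DPI. At 14 DPI, 5 of the 8 running muscles lay above the highest non-running injured muscle for Trim63 (221 TPM), and the highest, 524 and 608 TPM, were not repaired. Against non-running rats none of the 20 pairs passed in injured muscle, where 0.0177%, 0%, 0% and 0.309% of genes were called and 1.07%, 0.00883%, 0% and 1.5% passed the adjusted p alone, and 5 had an unadjusted p under 0.05. The largest difference was Fbxo32 at 7 DPI (-0.94, 95% confidence interval -1.48 to -0.40, adjusted p = 0.18). Within rats 001 to 032 it was -0.31 (SE 0.28). Without the injured muscle of rat 011 it would be called (-1.08, adjusted p = 0.026), as without the second muscle of the running grafted group (-1.02, adjusted p = 0.049). Trim63 at 14 DPI differed by 0.60 (SE 0.26, adjusted p = 0.9). In contralateral muscle none of 15 pairs passed or had an unadjusted p under 0.05, with 0.265%, 0.00883% and 0% of all genes called at 3, 7 and 14 DPI and 2.15%, 0.053% and 0% past the adjusted p alone. The injury effect did not differ by running past the test in any of 15 pairs (0.159%, 0% and 0% of all genes called), and 1 of them, Trim63 at 3 DPI, had an unadjusted p under 0.05 (-0.97, adjusted p = 0.43).

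Other genes of the pathway were described as 4 lists. In contralateral muscle at 3 DPI against control, 10 of 15 further muscle ubiquitin ligase genes passed as higher (median 0.46, all tested genes 0.44) and none was called. Of all genes tested, 65.7% passed as higher and 7.09% were called higher in this comparison. The medians were 0.56 for 19 regulators of FoxO (14 passed higher), 0.53 for 22 FoxO target genes (14 passed higher, 3 called) and 0.65 for 5 glucocorticoid response genes (4 passed higher, 1 called). The called genes were the growth arrest gene Gadd45a (1.29), the lysosomal protease gene Ctsl (1.17), the catalase gene Cat (1.00) and the glucocorticoid-induced factor Klf15 (1.04). Under size factors 1, 2, 3 and 0 genes of the lists passed as higher, 4, 1, 6 and 0 as lower, and none was called. On that scale 2.75% of all genes were called higher. The shares of all genes that passed on it are not given, so these counts have no background beside them. Between 3 and 7 DPI in contralateral muscle, all 5 glucocorticoid response genes passed as higher at 3 DPI, with Ddit4 (1.74), an inhibitor of mTORC1, the clock gene Per1 (1.49) and Klf15 (1.01) called. Their median was 1.01 against 0.35 for all genes, and under size factors 4 passed with Ddit4 (1.32) and Per1 (1.09) called. Of all genes 57.9% passed as higher between these days and 2.52% were called higher, and under size factors 13.2% and 0.447%. Against 14 DPI 4 of the 5 passed as higher (55.8% of all genes), without Fkbp5 (-0.08), and against 28 DPI none passed (adjusted p 0.10 to 0.68), with Fkbp5 at -0.09 and Per1 at -0.26. In running rats 2 of the 5 passed between 3 and 7 DPI (29.3% of all genes as higher), and none as higher under size factors.

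Injured against contralateral muscle split the lists at 3 DPI. Of all genes tested, 64.1% passed as higher and 18.8% as lower, and 34.8% were called higher and 6.39% lower. Of the ligases, 7 passed as higher and 5 as lower, and those called were Asb2 (-2.08), a muscle ligase subunit, and Trim54 (-1.05), which encodes MuRF3. Of the FoxO regulators 8 passed as higher and 7 as lower. The called ones included the growth factor Igf1 (2.94) on the higher side, and on the lower side the AMPK subunit Prkaa2 (-2.32), the coactivator Ppargc1a (-2.01), the insulin receptor substrate Irs1 (-1.89) and Foxo4 (-1.64). Of the FoxO targets 10 passed as higher and 5 as lower, led by the cell cycle inhibitor Cdkn1a (5.1), Ctsl (3.60) and Gadd45a (3.27). The lower called targets were the mitophagy genes Pink1 (-1.60) and Bnip3 (-1.03). Of the glucocorticoid response genes Klf15 was called lower (-2.26) and Fkbp5 higher (1.25). The list medians were 0.03 (ligases), -0.18 (regulators), 0.18 (targets) and -0.42 (glucocorticoid response), against 0.60 for all genes.

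At 28 DPI Cdkn1a (5.72) and Gadd45a (3.11), both also tied to p53, remained called higher, as did Sesn3 (1.38) and Ctsl (1.27), and Igf1 stood at 2.26. The list medians were then 0.25, 0.35, 0.24 and -0.14, against 0.43 for all genes, and no glucocorticoid response gene passed. The lists turn with the scaling: under size factors 11 of 15 ligases, 11 of 19 regulators and 17 of 22 targets passed as lower at 3 DPI, where 39% of all genes did. Cdkn1a (4.52), Ctsl (2.95), Gadd45a (2.63) and Igf1 (2.32) stayed called higher on that scale. In the same comparison at 3 DPI, 10 of 10 leukocyte and 8 of 8 fibroblast markers were called higher (medians 4.71 and 3.38) and 16 of 16 fiber markers lower (median -2.07). At 28 DPI the leukocyte sum was 273 to 918 TPM. Of 6 new fiber markers 5 passed as higher at 3 DPI and 6 at 28 DPI. The part of these cells in the list values was not tested.

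**Figure D5:**
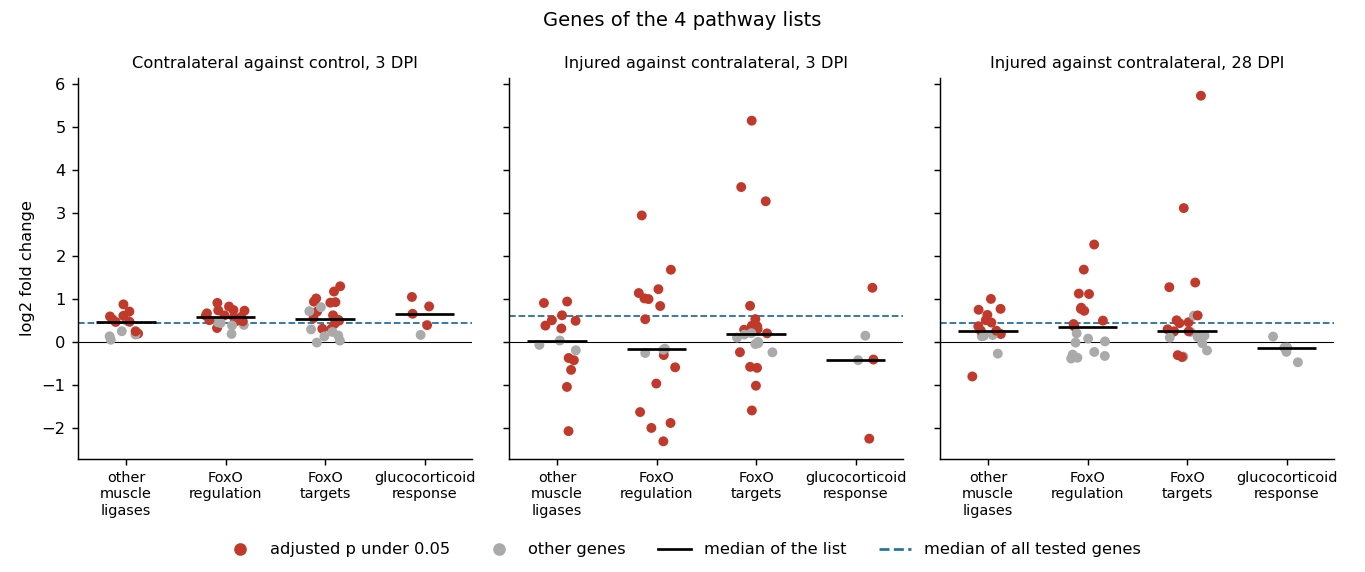
Log2 differences of the genes of the pathway lists, with injured against contralateral muscle and contralateral muscle at 3 DPI against control, 1 point per gene, red at an adjusted p under 0.05. Black bars mark list medians and the dashed line the median of all tested genes, and at 3 DPI the list medians in injured muscle (-0.42 to 0.18) lie below that median (0.60).

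Likeness of pattern was measured as Pearson's r of mean log2 levels over 31 groups, which share libraries and scaling, so no p is given. Trim63 and Fbxo32 followed each other at 0.844, and Fbxo30 followed Foxo3 at 0.938 and Foxo1 at 0.860, whereas Fbxo32 and Fbxo30 stood at 0.0908. Of all tested genes the most like Trim63 were RGD621098 (0.900), Nsmce1 (0.900) and Hsp90ab1 (0.896). Those most like Fbxo32 were Gga1 (0.944), Fkbpl (0.939) and Mknk2 (0.938). Ptprk (0.984), Otulin (0.978) and Card6 (0.975) came nearest to Fbxo30, and Lrp6 (0.946), Pik3r1 (0.921) and Gsk3b (0.919) to Foxo1. Glg1 (0.988), Pdxdc1 (0.986) and Kdm5a (0.986) came nearest to Foxo3.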

How the data were processed

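Total RNA of TA muscle was sequenced by the authors (TruSeq, paired-end), pseudo-aligned to the rat genome (build 6.0, GenBank annotation) with Kallisto, and deposited as one table of TPM per gene symbol. Versions are not given in the sources used here. The values were used as deposited. TPM keeps no depth, so no counting error is given, and the number of muscles limits the precision. The table ends at an incomplete entry, Tubb4a, which was left out, leaving 16181 symbols of 138 libraries.

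Groups came from the sample labels, which 129 libraries could be given. Of the other 9, 8 carry titles and labels that name opposite muscles and 1 a day that differs from its rat's other libraries. Libraries with fewer than 7000 symbols above 1 TPM were left out, which removed 2 muscles, and 2 muscles with more than 1 library were averaged over their libraries. No libraries were identical. In limma 3.58.1 (R 4.3.3), groups (31) were fitted on log2(TPM + 1) with an intensity trend (83 residual degrees of freedom). Genes with a mean above 1 TPM in at least 1 group were tested, and p values were Benjamini-Hochberg adjusted over all tested genes of a comparison. Injured against control used non-repaired, non-running rats. Injured against contralateral and contralateral against control averaged both repair arms of non-running rats. The code was tested on simulated data.

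Members and lists were chosen with earlier results of these data known. The genes named are the 5 members, genes of the lists (ligases, FoxO regulators, FoxO targets, glucocorticoid response, and fiber, leukocyte, fibroblast and new fiber markers) and the 3 genes most like each member. Comparisons of contralateral muscle between days, of the injury effect at 7 and 3 DPI, and between ranges of rat numbers were added after seeing the data. Rat numbers pair the injured and contralateral muscles of one animal, and with the rat as a random block (statmod 1.5.0) their correlation was 0.026. Alternatives were a pseudocount of 0.1, no filter, size factors, the rat block, all libraries kept, each library as its own sample, non-running rats alone, controls averaged per rat, the non-repaired arm alone, and each of 100 muscles left out in turn. Python 3.11.15 with pandas 2.3.3, numpy 2.4.6 and matplotlib 3.10.9 gave the summaries and plots.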

Additional observations from a re-analysis of the deposited data

Results flagged for a closer look

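Of 80 combinations of a gene and a group of 4 to 10 muscles, 6 held a muscle far from the others by Dixon's test, and chance gives about 1 in 20. Fbxo30 was 2.83 TPM in the right muscle of control rat 038, against 8.04 to 8.2 TPM in the other 3. Foxo1 was 6.08 TPM in the grafted injured muscle of rat 091 at 3 DPI (others 9.23 to 11.8 TPM) and 6.79 TPM in the non-repaired injured muscle replicate 6 at 7 DPI (others 8.62 to 9.6 TPM). Trim63 was 64.4 TPM in the non-repaired injured muscle of rat 011 at 7 DPI (others 221 to 525 TPM) and 330.2 TPM in the grafted injured muscle replicate 5 (others 147 to 209 TPM). Foxo3 was 7.17 TPM in the grafted injured muscle of rat 023 at 7 DPI (others 11.4 to 15.3 TPM).

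The injury effect (injured minus contralateral muscle) differed between days by limma. At 7 against 3 DPI it was larger by 1.58 for Fbxo32 (adjusted p = 0.0028), 0.52 for Foxo1 (SE 0.17, adjusted p = 0.007) and 0.42 for Foxo3 (SE 0.18, adjusted p = 0.038). Under size factors Fbxo32 stayed called (1.21, adjusted p = 0.022), while Foxo1 (0.20, adjusted p = 0.23) and Foxo3 (0.12, adjusted p = 0.57) did not pass. Day and range of rat numbers are mixed in these comparisons, since every contralateral muscle at 3 DPI came from rats 001 to 032, and 8 of the 10 at 7 DPI from rats with higher numbers. At 28 against 3 DPI it was larger by 0.57 for Foxo1 (SE 0.20, adjusted p = 0.012, and 0.67 under size factors), with 22.3% of all genes called and none of the 5. Every muscle at 28 DPI came from rats with higher numbers. Day and range therefore cannot be told apart in the contralateral muscles of this comparison.

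Comparisons left out 8 running-rat libraries of 28 DPI that carry conflicting muscle names in title and label. The 4 titled contralateral carry the label of injured muscle, and the 4 titled injured that of contralateral muscle. Of the 4 titled contralateral, 4 lay above the highest control muscle for Fbxo30 (11.6 to 17.8 TPM), 4 for Foxo1 (9.43 to 13.5 TPM), 4 for Foxo3 (6.89 to 9.16 TPM) and 2 for Trim63 (188 to 305 TPM). Of the 4 titled injured, 4 did so for Foxo1 (8.81 to 12.1 TPM), 4 for Foxo3 (6.12 to 8.05 TPM) and 2 for Fbxo32 (92.5 to 179 TPM).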

How the results depend on the processing

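Of 20 pairs against control, 6 were called. None of these 6 kept its call under size factors, where 3 other pairs were called, Fbxo32 as lower at 7, 14 and 28 DPI, and Fbxo32 turned at 7 DPI from 0.07 to a called -1.01. With all libraries kept 4 were called, without Trim63 at 3 DPI (1.41, adjusted p = 0.081) and Foxo3 at 7 DPI (0.73, adjusted p = 0.013). Of 20 against contralateral muscle, 5 were called. None of these 5 kept its call under size factors, where 2 other pairs were called, Fbxo32 as lower at 3 (-1.60) and 28 DPI (-1.09). There were 7 with all libraries kept, with Trim63 (1.35) and Fbxo32 (1.197) added at 7 DPI. The 1 called in contralateral muscle against control was lost with all libraries kept, at the same difference and a wider SE (Fbxo32 1.70, SE 0.64, adjusted p = 0.068). Of 15 pairs of contralateral muscle at 3 DPI with later days, 5 were called, and 2 under size factors, 3 with all libraries kept and 3 in the non-repaired arm alone. With all libraries kept, the 4 of running rats became 1 (those lost stood at 2.03, 1.398 and 2.06) and the 1 time step of injured muscle 0. The 1 for the injury effect at 7 against 3 DPI became 0 in the non-repaired arm alone. Causes were not tested, but all libraries kept adds libraries of few detected symbols. Leaving out each muscle in turn gave 3 to 7 calls against control, 5 to 6 against contralateral muscle, 4 to 6 for contralateral muscle at 3 DPI with later days, 12 to 14 relative to fiber markers (13 with all), 0 to 1 for the time steps and 0 to 1 for running in injured muscle. The replicate block by rat changed no call count (6, 5 and 1 for the first 3 comparisons). Without the first non-repaired contralateral muscle at 3 DPI, Fbxo32 was 1.30 at 3 against 28 DPI in contralateral muscle (adjusted p = 0.051). Of 1665 values of single genes under the other settings, 1626 kept their side of the call, 26 lost a call, 12 gained one and 1 reversed, and 54 changed sign with a call in neither fit.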

Other observations

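The contralateral library of rat 011 labelled day 3, while the other libraries of its rat are labelled day 7, held 122 TPM of Trim63, 58.3 TPM of Fbxo32, 7.23 TPM of Fbxo30, 6.58 TPM of Foxo1 and 4.38 TPM of Foxo3. In the 8 libraries of running rats at 28 DPI with opposite titles and labels, Fbxo30 ranged from 5.55 to 7.31 TPM in those titled injured and from 11.6 to 17.8 TPM in those titled contralateral.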
